A study of Mus musculus with 3 samples.

Results

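The genes described here are Tbx21, Ifng, Il12rb1, Il12rb2, Il18r1, Il18rap, Stat4, Eomes and Hlx, a set of 9 chosen by name for the Th1 pathway of T-bet, interferon gamma and the receptors of IL-12 and IL-18. They were chosen with earlier results of these data known. All 9 were measured, among 19938 genes in the whole table, and each was read by 1 probe that carries a single gene symbol. RNA from mouse CD4+ T cells was hybridised to 3 single-colour Affymetrix arrays, 1 each for Th0, Th22 and Th17 cells. All cells came from spleens of the OT-II strain B6.Cg-Tg(TcraTcrb)425Cbn/J, which carries a transgenic T cell receptor for an ovalbumin peptide, and were sorted as naive (CD4+CD25-CD62LhighCD44low). They were stimulated with that peptide on splenic antigen-presenting cells that had been depleted of T cells and came from Il23a-/- mice, so all 3 conditions shared presenting cells unable to make IL-23. Th0 cells got no cytokine, Th22 cells got IL-6 alone, and Th17 cells got IL-6 and TGFβ. Cells were purified by MACS (magnetic sorting) after 60 hours. The sources used here do not give the ages of the mice or say whether animals were pooled.

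T-bet, encoded by Tbx21, is the transcription factor that directs naive CD4+ T cells to the Th1 fate, whose signature cytokine is interferon gamma. IL-12 from antigen-presenting cells acts through a receptor of the chains encoded by Il12rb1 and Il12rb2 and through the transcription factor STAT4, and IL-18 acts through the chains encoded by Il18r1 and Il18rap. Both cytokines promote interferon gamma production in T cells. TGFβ is known to oppose the Th1 program, and Il12rb1 is also a chain of the IL-23 receptor that Th17 cells use.

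Each deposited value is a difference from the probe's own median over the 3 arrays, so that at least 1 array always reads 0. It is a relative value and not an expression level, and genes are therefore not ranked against each other by level. The log base and the direction are not stated. Base 2 was assumed and higher values were read as more RNA; natural logs would make the folds larger. Each condition had 1 array, so no p-value is given, no spread between cultures is known, and the threshold for counting a gene was a 2-fold difference between arrays. For scale, 999 genes had several probes, and the differences read by probes of 1 gene scattered around their mean with an SD of 0.10 log2 (Th22 and Th0) or 0.12 log2 (both comparisons with Th17). None of the 9 Th1 pathway genes had such a repeat probe. In RNA from bulk cells, fewer cells of a type cannot be told apart from less RNA per cell.

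The Th1 pathway genes did not differ as a block, although most were lower in Th17 by some amount. In Th17 against Th22, 8 of 9 were lower, 0 higher and 1 equal. In Th17 against Th0, 7 were lower, 1 higher and 1 equal, and in Th22 against Th0 5, 3 and 1. Of all 19938 genes, 5237 were lower, 5827 higher and 8874 equal in Th17 against Th22. In Th17 against Th22, 4 of 9 passed the threshold as lower and 0 as higher, where 1.5% of all genes were lower and 1.1% higher by that measure. In Th22 against Th0, 2 of 9 were at least 2-fold lower and 1 higher, where 0.261% of all genes were lower and 0.547% higher. In Th17 against Th0, 4 of 9 were lower and 0 higher, where 1.56% of all genes were lower and 1.47% higher. The 9 genes had a median difference of -0.66 log2 (Th17 minus Th22), -0.08 (Th22 minus Th0) and -0.79 (Th17 minus Th0), and the median over all genes was 0 in each. Of all probes, 40.3% read the same on all 3 arrays, whereas 0 of the 9 genes did. Such flat probes draw the median of all genes to 0 and lower the shares of all genes. Neither is therefore a like-for-like measure beside the 9 genes. After quantile normalization, which forces the same distribution on every array, the number past 2-fold in either direction was 3, 4 and 4 in that order, where 2%, 1.54% and 2.11% of all genes were. Each array serves in more than 1 of these comparisons. Because the 9 genes were chosen with earlier results of these arrays known, their counts are not independent evidence of a difference from all genes.

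**Figure D1:**
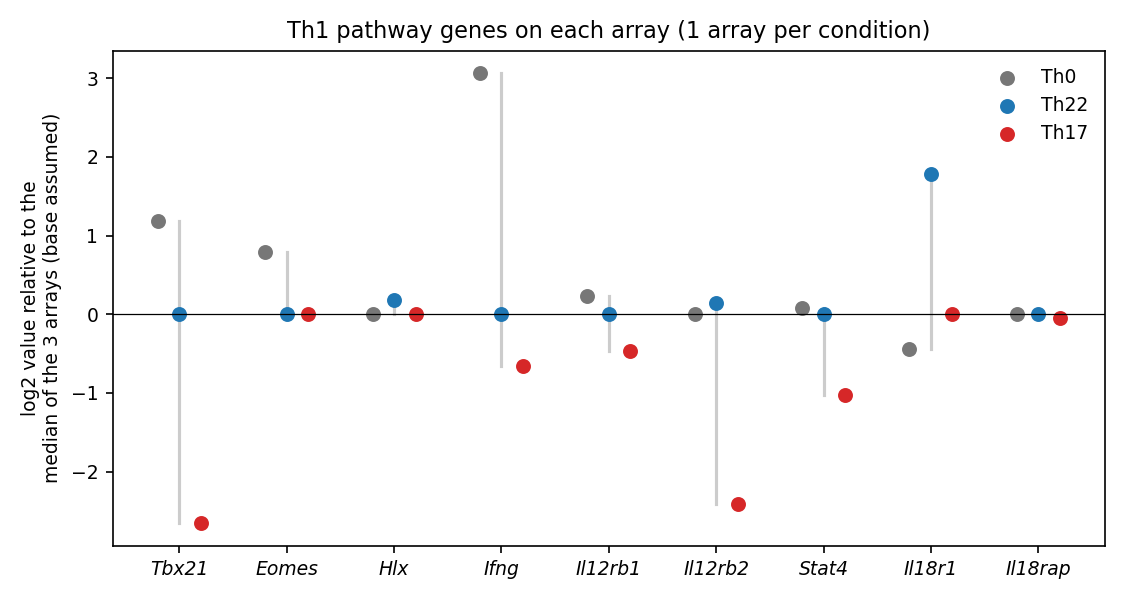
Value of each of the 9 Th1 pathway genes on the Th0, Th22 and Th17 arrays, as the log2 difference from the gene's median over the 3 arrays (1 point per array, no error bars because each condition had 1 array; the grey line joins the lowest and the highest). Tbx21 and Ifng were highest in Th0, Il18r1 was highest in Th22 at 1.79, and Il12rb2 was low in Th17 alone at -2.41.

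Among the transcription factors, Tbx21 stood in 3 separate positions. Its value was 1.18 in Th0, 0 in Th22 and -2.66 in Th17. Th0 was thus highest, Th22 between and Th17 lowest, and each neighbouring pair of arrays lay over 2-fold apart. Tbx21 was 2.27-fold below Th0 in Th22, which was rank 39 from the lowest of all genes in that comparison. It was 6.30-fold lower in Th17 than in Th22 (rank 33) and 14.3-fold lower in Th17 than in Th0 (rank 14). Under quantile normalization these differences of Tbx21 were 2.91-fold (Th22 against Th0), 2.95-fold (Th17 against Th22) and 8.59-fold (Th17 against Th0). The steps from Th0 to Th22 and from Th22 to Th17 were then of similar size. That the step from Th22 to Th17 was the larger in the deposited values thus depended on the processing.

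Eomes encodes Eomesodermin, a T-box factor related to T-bet that is best known in CD8 T cells and natural killer cells. Its value was 0.79 in Th0, 0 in Th22 and 0 in Th17, so only the Th0 array stood apart, and it was 1.73-fold lower in each of the other conditions, inside the 2-fold threshold. Under quantile normalization Eomes was 2.11-fold lower in both. Where Tbx21 was lower in Th17 than in Th22, Eomes read exactly the same on these arrays. Hlx encodes a homeobox factor that acts with T-bet in mouse Th1 cells. Its values were 0 in Th0, 0.18 in Th22 and 0 in Th17, a span of 1.13-fold, and it stayed near its median on all arrays.

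Eomes, Hlx and Il18rap each read exactly the same on 2 arrays, as did 24.3% of all probes. Of those 7007 probes, the remaining array was higher in 3390 and lower in 3617. With the level removed by the centring, a steady gene and an undetected gene look alike.

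Ifng encodes interferon gamma, the cytokine that defines Th1 cells and activates macrophages. Its value was 3.06 in Th0, 0 in Th22 and -0.66 in Th17. The Th0 array was far above both arrays of cells given IL-6, and these lay 1.58-fold apart. Ifng was 8.36-fold below Th0 in Th22, which placed it at rank 3 from the lowest of all genes, and 13.2-fold lower in Th17 than in Th0, at rank 15. Under quantile normalization these differences of Ifng were 12.7-fold and 16.7-fold. Between Th22 and Th0, Tbx21 differed by -1.18 log2 and Ifng by -3.06 log2. Whether these amounts differ beyond the spread between cultures was not tested.

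**Figure D2:**
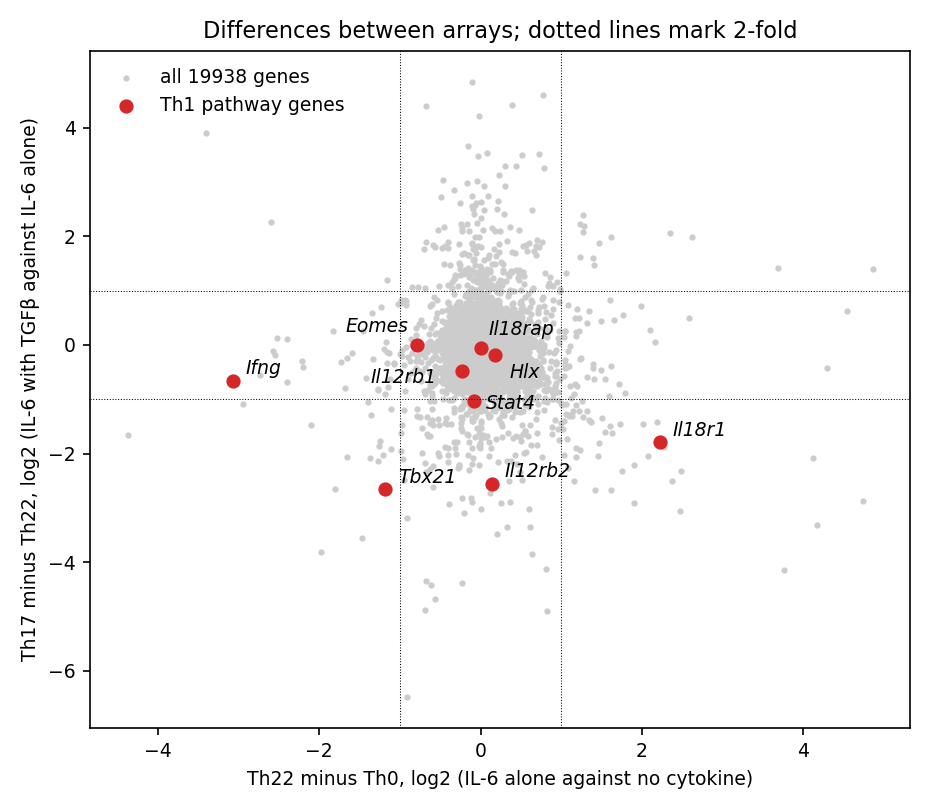
Differences between arrays for all 19938 genes (grey) and the 9 Th1 pathway genes (red), with Th22 minus Th0 on the horizontal axis and Th17 minus Th22 on the vertical axis, both in log2; the axes share the Th22 array, and dotted lines mark 2-fold. Ifng lay far to the left at -3.06, Il12rb2 straight down at -2.56, Tbx21 down and to the left, and Il18r1 down and to the right at 2.23.

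The receptor chains for IL-12 separated. Il12rb2 encodes the signalling chain specific to IL-12, the one that binds STAT4 and that Th1 cells retain. Its value was 0 in Th0, 0.14 in Th22 and -2.41 in Th17. Th0 and Th22 lay 1.10-fold apart and the Th17 array was far below both. Il12rb2 was 5.88-fold lower in Th17 than in Th22 (rank 37 from the lowest) and 5.32-fold lower in Th17 than in Th0 (rank 68). Under quantile normalization these were 2.95-fold and 2.64-fold.

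Il12rb1 encodes the chain shared by the receptors for IL-12 and IL-23. Its value was 0.23 in Th0, 0 in Th22 and -0.47 in Th17, in the same order as Tbx21 but within 2-fold throughout. It was 1.39-fold lower in Th17 than in Th22, 1.18-fold lower in Th22 than in Th0 and 1.63-fold lower in Th17 than in Th0. Stat4, the transcription factor gene that carries the IL-12 signal, had values of 0.08 in Th0, 0 in Th22 and -1.03 in Th17. Th0 and Th22 lay 1.06-fold apart, and Th17 was 2.04-fold below Th22 and 2.17-fold below Th0. These Stat4 differences were just past 2-fold, and under quantile normalization they were 1.55-fold and 1.63-fold.

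The IL-18 receptor chains also parted. Il18r1 encodes the chain that binds IL-18. Its value was -0.44 in Th0, 1.79 in Th22 and 0 in Th17. It was the only one of the 9 genes more than 2-fold higher in Th22 than in Th0 (4.68-fold, rank 16 from the highest), and it was 3.45-fold lower in Th17 than in Th22 (rank 107 from the lowest). Th17 lay 1.36-fold above Th0.

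Il18rap encodes the accessory chain that IL-18 needs to signal. Its value was 0 in Th0, 0 in Th22 and -0.05 in Th17, a span of 1.04-fold, although it lies beside Il18r1 on the chromosome. Th22 cells thus had a higher value of the binding chain with no measured difference in the accessory chain, and whether the accessory chain was detected at all is unknown.

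Promoter windows are shown for the 4 genes with the largest differences, since Tbx21, Ifng, Il12rb2 and Il18r1 took 4 different patterns over the arrays. The sequences are from RefSeq (GRCm38.p6), read 5′ to 3′ on the gene's strand, from 250 bases before to 50 after an annotated start. The table has 11 windows for 8 of the 9 genes, and none for Il12rb1. The windows lie at chr11:97115282-97115581 (minus strand) for Tbx21, chr10:118440796-118441095 (plus) for Ifng, chr6:67376139-67376438 (minus) for Il12rb2 and chr1:40465756-40466055 (plus) for Il18r1, the last being the only one of 3 Il18r1 windows with a match. Capitals mark matches to TTCNNNGAA, the GAS motif, which STAT factors can bind.
Tbx21: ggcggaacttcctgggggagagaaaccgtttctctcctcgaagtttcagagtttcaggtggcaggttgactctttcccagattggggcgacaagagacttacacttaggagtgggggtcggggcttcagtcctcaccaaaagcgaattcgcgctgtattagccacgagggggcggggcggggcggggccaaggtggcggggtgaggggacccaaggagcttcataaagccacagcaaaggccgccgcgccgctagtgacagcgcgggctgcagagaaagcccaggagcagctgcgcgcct
Ifng: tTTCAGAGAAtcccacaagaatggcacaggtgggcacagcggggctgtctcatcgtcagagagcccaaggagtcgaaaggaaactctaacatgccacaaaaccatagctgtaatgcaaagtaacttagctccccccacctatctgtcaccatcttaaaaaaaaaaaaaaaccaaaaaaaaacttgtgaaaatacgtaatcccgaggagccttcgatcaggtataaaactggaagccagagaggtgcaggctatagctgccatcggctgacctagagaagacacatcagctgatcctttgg
Il12rb2: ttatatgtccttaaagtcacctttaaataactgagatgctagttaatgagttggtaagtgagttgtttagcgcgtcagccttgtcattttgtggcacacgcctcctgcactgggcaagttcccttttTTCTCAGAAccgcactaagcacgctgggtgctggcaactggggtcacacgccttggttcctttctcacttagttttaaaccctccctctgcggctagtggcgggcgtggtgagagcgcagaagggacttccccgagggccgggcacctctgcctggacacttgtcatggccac
Il18r1: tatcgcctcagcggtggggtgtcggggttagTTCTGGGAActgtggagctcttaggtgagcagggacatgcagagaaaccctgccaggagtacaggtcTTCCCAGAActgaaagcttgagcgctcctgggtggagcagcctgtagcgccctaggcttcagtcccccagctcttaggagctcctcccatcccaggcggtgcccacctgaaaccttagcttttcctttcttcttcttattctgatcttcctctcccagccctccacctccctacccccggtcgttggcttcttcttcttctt

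The GAS letters, which read the same on both strands, were found once in the Ifng window, 249 bases before the start, and once in that of Il12rb2, 123 bases before it. The Il18r1 window held 2 matches, 219 and 152 bases before the start. In all, 3 of the 11 windows held a match, against 8.3% of 32851 promoter windows of the same length. The Tbx21 window held none. The T-box motif GGTGTGA was in 0 of the 11 windows (3.98% of all windows), and TGANTCA, the AP-1 motif, in 0 of 11 (7.81% of all), with both strands searched. Since only GAS matched, no match overlaps another motif. A match is a run of letters and no evidence of binding.

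Some neighbours of these genes on the chromosome differed strongly and in other directions. Among protein-coding genes up to 3 places to either side, 41 of 48 were measured. Of these 41, 2 lay at least 2-fold apart between Th17 and Th22 (Iltifb and Il23r, against 2.61% of all genes), 3 between Th22 and Th0 (Iltifb, Il23r and Il1rl2, against 0.808%) and 2 between Th17 and Th0 (Tbkbp1 and Il23r, against 3.03%). Under quantile normalization Il1rl2 also passed in Th17 against Th22 (2.45-fold), as did Dusp10, beside Hlx, in Th17 against Th0 (2.10-fold). These were singled out after their values were seen.

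Il23r, which encodes the IL-23-specific receptor chain, is the gene next to Il12rb2. Its value was -1.87 in Th0, 2.87 in Th22 and 0 in Th17. In Th22 it was 26.8-fold above Th0, where Il12rb2 differed by 1.10-fold. In Th17 it was 3.66-fold above Th0, where Il12rb2 was 5.32-fold below. Both genes were lower in Th17 than in Th22, Il23r by 7.33-fold and Il12rb2 by 5.88-fold. The 3 chains that build the receptors for IL-12 and IL-23 thus had 3 different patterns, with the shared chain the least variable.

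Iltifb, a copy of the cytokine gene Il22, is the gene next to Ifng. Its value was -0.85 in Th0, 3.32 in Th22 and 0 in Th17, so that it was 18.0-fold above Th0 in Th22, where Ifng was 8.36-fold below. Signal of Iltifb may come in part or in whole from Il22, which is nearly identical and had no single-symbol probe. Il1rl2, which encodes the receptor for IL-36 and lies 2 places from Il18r1, had values of -0.14 in Th0, 0.98 in Th22 and 0 in Th17, in the same order of arrays as Il18r1, and was 2.17-fold higher in Th22 than in Th0. Beside Tbx21, Tbkbp1, which encodes an adaptor of the kinase TBK1, was 2.08-fold below Th0 in Th17.

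**Figure D3:**
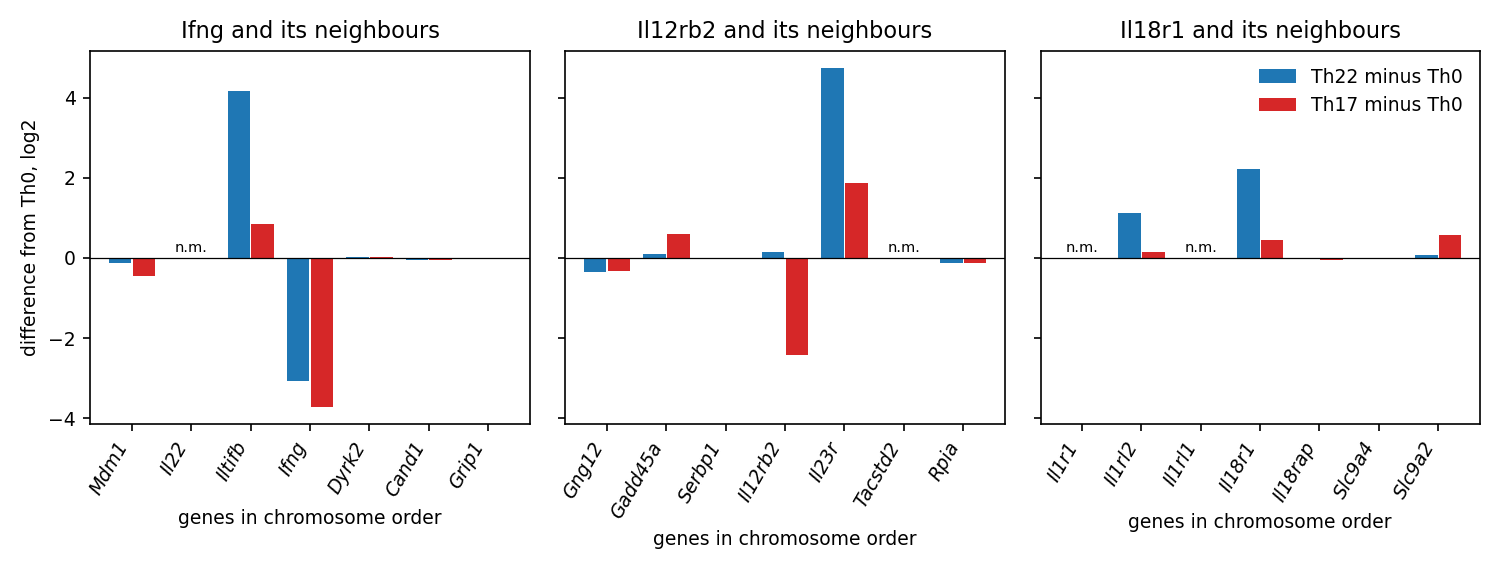
Difference from Th0 in log2 for Ifng, Il12rb2 and Il18r1 and the 3 protein-coding genes on each side in chromosome order, for Th22 (blue) and Th17 (red), which share the Th0 array; n.m. marks a gene not measured by a single-symbol probe, and bars start at 0. Iltifb beside Ifng was 4.17 above Th0 in Th22 while Ifng was 3.06 below, and Il23r beside Il12rb2 was above Th0 in both conditions.

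Other genes of IL-12 family receptors and signalling differed to varied extents. Of 9 listed genes, Il12rb1, Il12rb2 and Stat4 included, 3 passed as lower in Th17 against Th22 (Il12rb2, Il23r and Stat4) and 1 as higher, Il6st, which encodes the shared signalling chain gp130 (3.62-fold). The list's median was -0.35 log2, and 0 over all genes, of which 1.5% were at least 2-fold lower and 1.1% higher. In Th22 against Th0 only Il23r passed 2-fold, and in Th17 against Th0 Il23r and Il6st were higher and Il12rb2 and Stat4 lower. Among all genes, 0.808% passed in Th22 against Th0, and 1.47% were higher and 1.56% lower in Th17 against Th0. The kinase genes of the IL-12 receptor, Tyk2 and Jak2, spanned 1.02-fold and 1.39-fold at most. Stat3, which carries IL-6 and IL-23 signals, was 1.27-fold higher in Th17 than in Th0. Il27ra, a receptor chain gene for IL-27, was 1.54-fold higher in Th22 than in Th0.

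Of 7 ligand genes of the IL-12 family and IL-18, none differed by 2-fold between Th17 and Th22 or between Th22 and Th0. Among all genes, 2.61% and 0.808% did. Il12b, which encodes the subunit common to IL-12 and IL-23, was equal on all arrays. Ebi3, which encodes a subunit of IL-27 and IL-35, was 2.41-fold below Th0 in Th17. Il18 had values of 0 in Th0, 0.11 in Th22 and -0.72 in Th17.

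For the IL-18 receptor and its signalling, 7 of 8 listed genes were measured, Il18r1 and Il18rap included, with Irak4 not analysed here. In Th17 against Th22, Il18r1 and the kinase-family gene Irak2 (2.47-fold) were lower and none higher, with a list median of 0.02 log2. The shares of all genes were 1.5% lower and 1.1% higher. Irak2 was also 2.31-fold lower in Th17 than in Th0. Quantile normalization took both Irak2 differences under 2-fold, to 1.81-fold and 1.67-fold. Traf6, an adaptor ligase gene, went the other way and was 1.90-fold higher in Th17 than in Th22, inside the threshold.

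The receptor for interferon gamma did not follow its ligand. Ifngr1, which encodes the ligand-binding chain, had values of -0.49 in Th0, 0 in Th22 and 0.16 in Th17. Ifngr2, which encodes the second chain, had -0.28, 0 and 0.42 in the same order. Both were thus lowest in Th0, where Ifng was highest, within 2-fold. Of 7 measured genes of interferon gamma receptor signalling, 0 differed by 2-fold between Th17 and Th22 or between Th22 and Th0. Among all genes, 2.61% and 0.808% did. In Th17 against Th0, Irf1, a transcription factor gene induced by interferon gamma, was lower by 2.22-fold. That value averages a pair of probes that differed, one at -1.96 and the other at -0.34 log2.

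Genes known to be bound or induced by T-bet, or to act with it, took several patterns. Of 15 measured genes, 6 passed in Th17 against Th22 as lower and 0 as higher, where 1.5% of all genes were lower and 1.1% higher. The median of the list was -0.63 log2 beside 0 for all genes. Under quantile normalization 4 passed as lower and 1 as higher, since Ccl5 and Prf1 fell to 1.75-fold and Xcl1 reached 2.12-fold. By that processing 2% of all genes passed in either direction. In Th22 against Th0, Fasl was lower and Cxcr3 higher (median -0.02 log2), where 0.261% of all genes were lower and 0.547% higher. In Th17 against Th0, 5 were lower and 0 higher (median -0.69 log2), where 1.56% of all genes were lower and 1.47% higher. Flat probes lower these shares and draw the median of all genes to 0. The list was drawn up with earlier results of these arrays known and is not independent evidence of a direction.

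The chemokine receptor gene Cxcr3, a T-bet target that directs Th1 cells to inflamed tissue, had values of 0 in Th0, 1.18 in Th22 and -0.89 in Th17. It was 2.26-fold higher in Th22 than in Th0 although Tbx21 was lower there, and 4.18-fold lower in Th17 than in Th22. The chemokine genes were uneven. Ccl3 was 4.72-fold and Ccl5 3.96-fold lower in Th17 than in Th0, while Ccl4 and Xcl1 spanned 1.13-fold and 1.30-fold over the arrays. Under quantile normalization Ccl3 was 2.47-fold lower, and Xcl1 was 2.08-fold below Th0 in Th22.

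Fasl, the death ligand gene, resembled Ifng, with values of 2.40 in Th0, 0 in Th22 and -0.69 in Th17. The cytotoxic granule genes Gzmb and Nkg7 were instead lower in Th22 than in Th0 by less than 2-fold (1.88-fold and 1.17-fold). They were 89.3-fold and 20.8-fold lower in Th17 than in Th22. Under quantile normalization the differences of Th17 from Th22 were -4.91 log2 (30.1-fold) for Gzmb and -2.81 log2 for Nkg7. Gzmb was then 2.30-fold lower in Th22 than in Th0. Runx3, which encodes a factor that acts with T-bet at the Ifng gene, was within 1.33-fold between any arrays, and Twist1 was equal on all 3. Under quantile normalization 4 genes of the list passed 2-fold in Th22 against Th0 in place of 2, as Gzmb and Xcl1 then did too. By that processing 1.54% of all genes passed.

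**Figure D4:**
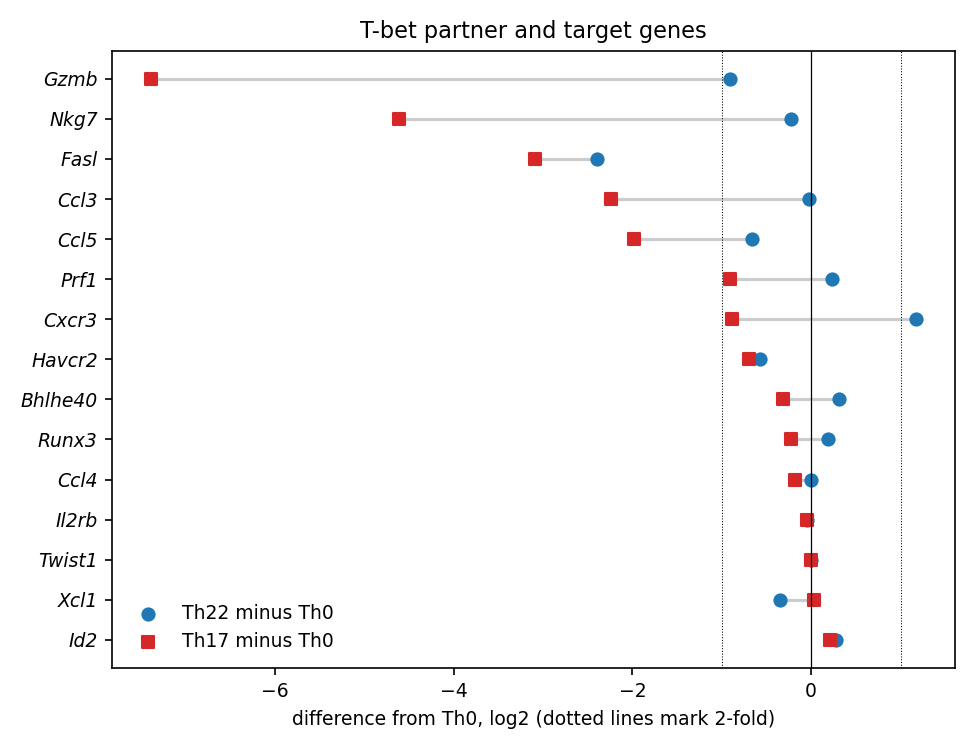
Difference from Th0 in log2 for the 15 measured T-bet partner and target genes, in Th22 (blue circles) and Th17 (red squares), which share the Th0 array; grey lines join both values of a gene and dotted lines mark 2-fold. Fasl was below the lower line in both conditions, whereas Gzmb, Nkg7, Ccl3 and Ccl5 were below it in Th17 alone and Cxcr3 was above the upper line in Th22.

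The factor genes of other T helper fates were, apart from Gata3, higher in Th17. Of these, 6 were measured. In Th17 against Th22, Foxp3, Maf, Ahr, Rora and Bcl6 were higher and Gata3 lower, and in Th17 against Th0 again 5 were higher and 1, Gata3, lower. The shares of all genes were 1.1% higher and 1.5% lower in Th17 against Th22, and 1.47% and 1.56% in Th17 against Th0. Quantile normalization took Bcl6 from 2.04-fold to 1.61-fold in Th17 against Th22, which left 4 higher, and Gata3 from 6.27-fold to 2.93-fold. Gata3, the Th2 factor gene, was ordered over the arrays like Tbx21, with values of 1.81 in Th0, 0 in Th22 and -2.65 in Th17. In Th22 against Th0, Gata3 was 3.50-fold lower and Rora 2.62-fold higher, where 0.261% of all genes were lower and 0.547% higher by at least 2-fold.

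The genes nearest in pattern were found by the distance between pairs of differences from Th0 (Th22 and Th17, in log2) over the 3 arrays, which is a description over few points. Nearest to Tbx21 were Plxnc1 (distance 0.38), which encodes a semaphorin receptor, the stress-response factor gene Atf3 (0.42) and Gm12250 (0.44). Nearest to Ifng were the Th2 cytokine gene Il13 (0.33), the interferon-inducible GTPase gene Iigp1 (0.54) and Fasl (0.92). Il13 was 7.68-fold lower in Th22 and 16.3-fold lower in Th17 than in Th0, so a Th2 cytokine gene lay closest to the Th1 cytokine gene.

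Nearest to Il12rb2 were the inflammatory caspase gene Casp4 (0.05), the interferon-responsive gene Epsti1 (0.19) and Ccl3 (0.24). All 3 were near their Th0 value in Th22 and between 4.72-fold and 6.09-fold lower in Th17 (between 2.47-fold and 2.86-fold under quantile normalization). Nearest to Il18r1 were the chemokine receptor genes Cxcr2 (0.07) and Cxcr1 (0.33) and the receptor chain gene Il13ra1 (0.24), between 4.04-fold and 4.83-fold higher in Th22 than in Th0. Cxcr1 and Cxcr2 are close relatives, and how well their probes separate them is not known here.

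Markers of other cells were set beside these results, although the centred values cannot show whether a marker is present, nor check the labelled cell type. The 9 measured pan T cell genes (Cd4 among them, Lck not analysed here) all lay within 2-fold, with mean values of -0.02 in Th0, 0.12 in Th22 and -0.09 in Th17. Of 10 myeloid and dendritic cell markers 7 were equal on all arrays, and the largest difference among them was 0.21 log2. Of 7 measured NK and CD8 T cell markers, the NK receptor genes Ncr1 and Klrb1c were equal on all arrays. Gzma (4.85-fold) and Cd8b1 (2.20-fold) were lower in Th17 than in Th22 and Klrd1 7.55-fold higher (2.52-fold, 1.61-fold and 4.40-fold under quantile normalization), with mean values over the list of 0.17 in Th0, -0.02 in Th22 and -0.10 in Th17. Of 6 measured B cell markers 3 were equal on all arrays, and Ebf1 had values of 0 in Th0, 1.62 in Th22 and -1.05 in Th17. Their part in the differences of the Th1 pathway genes was not tested.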

How the data were processed

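The authors deposited 1 table of 28853 probes for 3 arrays, read here as log2 values of each probe relative to its median over the arrays. The centring was found from the values, since the median was exactly 0 for all 28853 probes; the base is an assumption. The sources used here name no background correction, normalization, software or genome build, and signal over background is unknown. Samples were grouped by the T helper subset in the labels. Probes with 1 gene symbol (21789) were named from the platform annotation, 21698 of them updated by Entrez identifier with a RefSeq table of GRCm38.p6 used for names and gene order, and probes of a gene were averaged. Probes with several symbols (1621) were left out. Differences were computed with Python 3.11.15, pandas 2.3.3 and numpy 2.4.6, and the counting was tested on simulated data. Groups of 1 array allow no test. Quantile normalization, another centring, thresholds of 1.5-fold and 3-fold and natural logs were tried. Named genes were the 9 genes, the fixed lists, the 3 nearest in pattern to each of Tbx21, Ifng, Il12rb2 and Il18r1 and, chosen after seeing values, chromosomal neighbours. Genes and lists were chosen with earlier results of these data known.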

Additional observations from a re-analysis of the deposited data

How the results depend on the processing

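The number of Th1 pathway genes past the threshold stayed within 1.5 times of the reported number under the 5 alternatives run for each comparison. That is a wide margin for counts of 3 or 4. Over all settings, the other thresholds and natural logs included, it was 3 to 5 for Th17 against Th22, 2 to 4 for Th22 against Th0 and 3 to 6 for Th17 against Th0. At 2-fold in log2, quantile normalization gave 3, 4 and 4 in that order, where the values as deposited gave 4, 3 and 4. Quantile normalization took Stat4 under 2-fold in both comparisons with Th17 and put Eomes past 2-fold in both comparisons with Th0. It left Tbx21 2.95-fold, Il12rb2 2.95-fold and Il18r1 4.51-fold lower in Th17 than in Th22, and Ifng 12.7-fold lower in Th22 than in Th0. Among 86 member and listed genes it took 6 of 23 differences under 2-fold in Th17 against Th22 (Stat4, Irak2, Ccl5, Prf1, Bcl6 and Cd8b1), 0 of 9 in Th22 against Th0 and 4 of 24 in Th17 against Th0 (Stat4, Irak2, Cd8b1 and Ebf1). It brought 1, 3 and 1 past 2-fold, in the same order of comparisons, and turned the sign of 0. The Th17 array had the widest spread of values (SD 0.28, against 0.17 in Th0 and 0.12 in Th22), which this procedure narrows. Centring each array on the probes that vary changed nothing, as those medians were 0, so it was no test of the counts. Each of the 9 genes had 1 difference in each of the 3 comparisons. Quantile normalization moved 16 of these differences, the larger part, by at least the SD between probes of 1 gene. Choosing among probes could not be run, as each of the 9 genes has 1. No paired analysis was possible because each group has 1 array, and no array could be left out.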
